A study of Mus musculus with 72 samples.

Results

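SmcHD1 is a non-canonical SMC protein that accumulates on the inactive X chromosome (Xi) and contributes to the long-term silencing of X-linked genes. The comparison described here is between iXist-ChrX-Dom neural precursor cell (NPC) cultures of the SmcHD1 knockout (KO) clone A3 and of the unmutated line (WT) at days 15, 21, 35 and 52, with 1 library a genotype and day, so 8 of the 72 libraries of the series. The members are the 246 X-linked genes listed for this line by the study, of 22556 genes counted, and 238 of them had allelic fragments in all 8 libraries and were tested. The autosomal genes whose total RNA differed most consistently between the genotypes are described after them.

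In female mammals the non-coding RNA Xist coats the chromosome from which it is transcribed and silences most of its genes, while a few genes, the escapees, stay transcribed from both X chromosomes. Silencing sets in with loss of RNA polymerase and active histone marks and with gain of Polycomb marks. In later development it is held by SmcHD1 and by DNA methylation of CpG islands at promoters. The study reports that SmcHD1 also takes part in establishing the silencing of a subset of genes during differentiation. RNA from Xi in late KO cells can thus come from genes whose silencing was never completed or was lost.

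All 8 libraries come from female mouse embryonic stem cells (mESCs) of a Dom/129S x Cast cross, in which a doxycycline-inducible TetOn promoter replaces that of Xist on the Dom/129S X chromosome, so that the Dom allele marks Xi and the Cast allele the active X (Xa). Cells were differentiated to NPCs in N2B27 medium with doxycycline present, and RNA bound to chromatin was sequenced (ChrRNA-seq), which reads mostly nascent transcripts. A3 is a single clone, made with Cas9 and a pair of guides to the region of exons 23 and 24 of Smchd1, and its parent line is the WT. The 4 days serve as the replicates of the genotype difference, each with libraries of its own. The late A3 libraries are labelled replicate 2 at day 15 and replicate 1 at days 21, 35 and 52. The late WT libraries carry no replicate number. With 1 library each, a difference between A3 and WT cannot be told apart from a difference between these 2 sets of cultures.

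The allelic ratio of a gene is Xi/(Xi+Xa), the share of its allele-assigned fragments that come from Xi. A ratio of 0.5 means equal RNA from both X chromosomes and a ratio of 0 means none detected from Xi. Libraries held 26510406 to 31216487 fragments, of which 47.5% to 49.6% could be assigned to an allele. The median gene had between 205.5 and 265 allelic fragments in a library, and at that depth a count of 0 allows a ratio of up to 0.0113 to 0.0146. Such limits and the 95% Wilson intervals given below cover counting error only.

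Smchd1 RNA was still present in A3, where fragments from outside exons 23 and 24 are counted too. Its level was 532, 592, 434 and 374 CPM (fragments scaled to a common library size by TMM) in WT and 385, 401, 385 and 266 CPM in A3 at days 15, 21, 35 and 52. The day-adjusted log2 fold change was -0.42 ± 0.11 (SE, adjusted p = 0.462, edgeR), so the RNA level does not by itself verify the mutation. By western blot the study found no SmcHD1 protein in its KO clones. By immunofluorescence it found none over Xi in A3 at day 7. Xist stood at 37445, 23192, 39372 and 46398 CPM in WT and at 40566, 27082, 35955 and 105980 CPM in A3. At day 52 Xist made up 8.65% of all fragments in the A3 library. In each of the 8 libraries 99.9% of the allelic Xist fragments carried the Dom allele.

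One stretch of the X chromosome stood apart from the rest in several libraries of both genotypes. In WT, the 35 tested genes below 11 Mb had a median ratio of 0.0069 at day 15, 0.0433 at day 21, 0.174 at day 35 and 0.0915 at day 52. In A3 the same genes had medians of 0.0206, 0.0263, 0.316 and 0.033. The next 13 genes, from Bcor to Kdm6a between 11 and 20 Mb, had a raised median in a single library, A3 at day 35, where it was 0.179 against 0.0238 in WT at the same day. The highest of the 3 other A3 medians for these 13 genes was 0.0586. From 20 Mb on, the 190 remaining genes had medians of 0.000460 to 0.00449 in WT and of 0.0139 to 0.0225 in A3, and these did not overlap. Whole neighbourhoods of genes moved together below 20 Mb, in WT as in A3, so the values of gene groups are also given for the genes from 20 Mb on. The origin of these shifts was not tested. Autosomal windows of 20 Mb also showed unequal allele shares in 26 of 132 cases. On distal chromosome 6 the Cast share was 0.495 in WT at day 15 but 0.0594, 0.0941 and 0.178 in WT at days 21, 35 and 52, against 0.477 to 0.488 in A3, so the WT libraries of days 21 to 52 do not hold the same allele composition as that of day 15.

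Across the X chromosome, more RNA came from Xi in A3 than in WT on each of the 4 days. The median ratio over the 238 genes was 0.00482, 0.00699, 0.00501 and 0.00206 in WT at days 15, 21, 35 and 52. In A3 it was 0.0153, 0.0176, 0.0291 and 0.0258. The groups did not overlap, and the mean difference of the medians was 0.0172. A permutation of the genotypes on each day, exact and two-sided, gave p = 0.125, the smallest value that 16 arrangements of 4 days allow. Without the genes below 20 Mb the mean difference was 0.0135, with the same p = 0.125 by the exact permutation test.

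On each day, A3 had more genes with a high ratio and fewer genes without Xi RNA. Genes with a ratio above 0.1 numbered 15, 16, 43 and 24 in WT and 54, 31, 76 and 71 in A3. From 20 Mb on, these counts were 13, 11, 14 and 10 in WT and 43, 22, 29 and 60 in A3, so that much of the day 35 count in both genotypes came from the neighbourhoods described above. Genes with no Xi fragment at all numbered 79, 63, 71 and 97 in WT and 45, 47, 32 and 55 in A3. Gm14827, Gspt2, Spin4, Pja1, Tmem28 and Foxo4, 6 genes in all, had no Xi fragment in any of the 8 libraries.

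**Figure D1:**
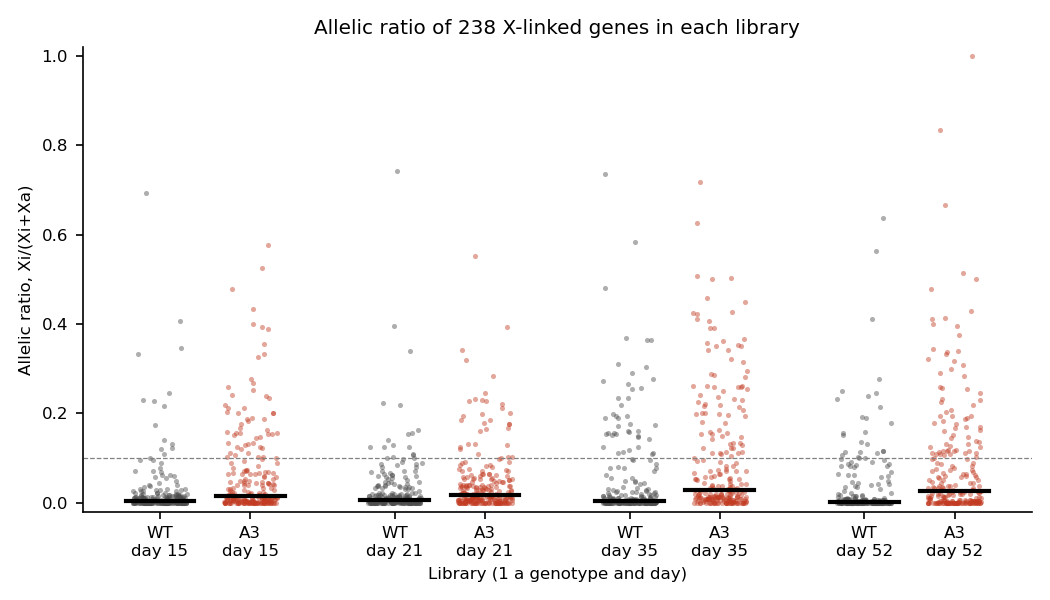
Allelic ratio, Xi/(Xi+Xa), of the 238 X-linked genes in each of the 8 libraries, 1 point a gene, with the median as a black bar and a ratio of 0.1 as a dashed line. The A3 medians lie between 0.0153 and 0.0291 and the WT medians between 0.00206 and 0.00699, while single genes reach far higher in both genotypes.

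Summed over the 246 genes, Xi gave 115, 131, 169 and 109 CPM in WT and 325, 279, 576 and 375 CPM in A3, whereas Xa gave 5636 to 6326 CPM in WT and 5508 to 6491 CPM in A3. Xi stayed far below Xa in A3 as well, and the Xa sums of the genotypes overlapped.

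Gene by gene, 149 of 238 genes had a higher ratio in A3 at day 15, 142 at day 21, 178 at day 35 and 143 at day 52. The ratio was higher in A3 on all 4 days for 79 genes, 33.2% of those tested, and lower on all 4 days for 2 genes, 0.84%. For 63 genes, 26.5%, every A3 library lay above every WT library, and for Tenm1 alone every A3 library lay below. Tenm1 had at most 4 Xi fragments in a library. From 20 Mb on, 68 of 190 genes were higher on all 4 days, against 5 of 13 between 11 and 20 Mb and 6 of 35 below 11 Mb. At day 52, when WT stood above its own day 15 level below 11 Mb, 6 of those 35 genes were higher in A3. Differences of more than 0.1 were seen in 39, 12, 48 and 60 genes at days 15, 21, 35 and 52. They recurred on all 4 days for 8 genes and were seen on a single day for 52 genes.

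Across genes, the A3 minus WT differences of pairs of days correlated with Spearman's rho of 0.207 (days 35 and 52) to 0.531 (days 21 and 52). These 238 genes are not independent of each other, and the points of a pair share the cell lines but no library. Among the 79 genes higher on all days the difference was largest at day 52 for 47, at day 35 for 19, at day 15 for 11 and at day 21 for 2, Firre and Eda2r. No gene showed a difference that changed with day (0 of 238 by limma, smallest adjusted p = 0.63, and 17 with an unadjusted p under 0.05, of which 15 rose with day). On the log2 of day the count was also 0, with 8 under an unadjusted p of 0.05.

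With limma on the ratios and day as a block, 8 genes passed an adjusted p of 0.05, 3.36% of those tested, all higher in A3. They were Pin4, Igbp1, Yipf6, Nkap, Taf1, Ogt, Zfx and Idh3g, and they were also the 8 genes with a difference above 0.1 on each of the 4 days. With any single day left out no gene passed (0 on each of the 4 occasions, with 35 to 49 genes under an unadjusted p of 0.05). Modelled as fragment counts of both alleles with edgeR, 65 genes passed, all higher in A3, among them 7 of the 8. Zfx was the exception, with an adjusted p = 0.0618 by edgeR, and none of the 8 genes lies below 35 Mb.

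**Figure D2:**
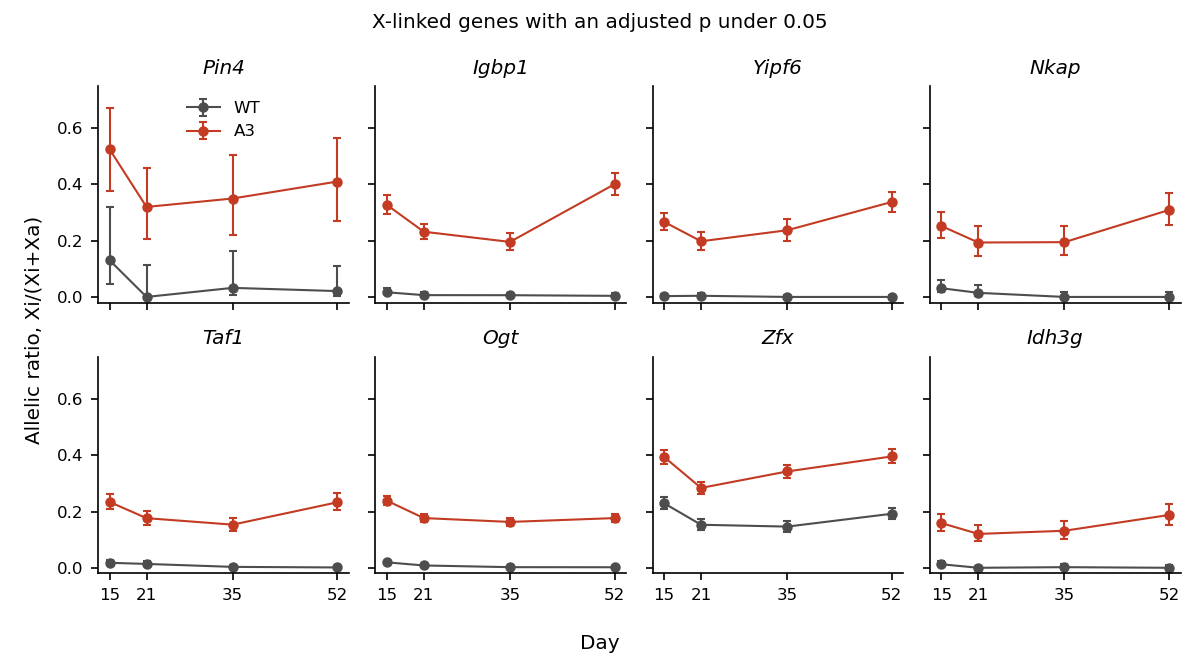
Allelic ratio by day of the 8 X-linked genes with a limma adjusted p under 0.05, WT in grey and A3 in red, with 95% Wilson intervals of each library. In all 8 panels the A3 points lie above the WT points on every day, and Zfx is the gene with a WT ratio above 0.14 throughout.

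Several of these genes lie next to another gene of the 20 with the largest differences, and the promoters of such neighbours are given so that the arrangement can be read. Sequences are those of RefSeq on GRCm38.p6 from 250 bases before a start to 50 bases after it, on the strand of the gene, with CpG dinucleotides in capitals. Idh3g (chrX:73778962-73786897, minus strand) and Ssr4 (chrX:73787027-73790828, plus strand) are transcribed away from each other, with 129 bases between them, and the window of Idh3g (chrX:73786848-73787147) covers both starts and holds 27 CpG.

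Idh3g: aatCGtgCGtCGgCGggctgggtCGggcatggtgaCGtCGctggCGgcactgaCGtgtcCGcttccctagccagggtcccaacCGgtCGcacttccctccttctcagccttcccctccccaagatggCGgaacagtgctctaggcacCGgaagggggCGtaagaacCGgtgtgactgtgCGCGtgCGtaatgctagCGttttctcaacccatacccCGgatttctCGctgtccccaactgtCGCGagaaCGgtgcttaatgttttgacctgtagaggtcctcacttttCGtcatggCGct

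Taf1 (chrX:101532734-101601789) and Ogt (chrX:101640050-101684351) follow each other on the plus strand 38.26 kb apart, with no other tested gene between them. Their windows, chrX:101532485-101532784 and chrX:101639801-101640100, hold 18 and 20 CpG.

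Taf1: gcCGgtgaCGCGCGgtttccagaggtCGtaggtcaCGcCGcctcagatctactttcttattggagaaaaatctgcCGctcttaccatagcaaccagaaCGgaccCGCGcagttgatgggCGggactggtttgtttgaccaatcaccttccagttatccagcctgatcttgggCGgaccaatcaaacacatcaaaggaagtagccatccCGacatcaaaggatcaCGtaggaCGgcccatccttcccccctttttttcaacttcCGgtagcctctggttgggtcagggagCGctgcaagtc

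Ogt: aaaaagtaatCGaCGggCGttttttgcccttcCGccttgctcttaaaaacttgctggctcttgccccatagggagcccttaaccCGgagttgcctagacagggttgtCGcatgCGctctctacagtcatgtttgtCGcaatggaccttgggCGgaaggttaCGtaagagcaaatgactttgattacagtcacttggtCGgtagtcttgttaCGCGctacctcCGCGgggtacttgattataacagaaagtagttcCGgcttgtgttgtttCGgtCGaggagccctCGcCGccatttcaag

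Pin4 (chrX:102119464-102127673, plus strand) and Ercc6l (minus strand) converge with 15.145 kb between their ends. The Pin4 window (chrX:102119219-102119518) holds 11 CpG.

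Pin4: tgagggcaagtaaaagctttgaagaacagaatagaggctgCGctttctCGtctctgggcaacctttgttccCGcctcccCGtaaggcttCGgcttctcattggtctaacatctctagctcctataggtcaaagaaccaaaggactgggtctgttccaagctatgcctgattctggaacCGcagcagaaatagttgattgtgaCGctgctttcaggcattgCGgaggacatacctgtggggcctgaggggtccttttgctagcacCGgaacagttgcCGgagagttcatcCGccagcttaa

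Zfx (chrX:94074630-94123407, minus strand) has the densest window of the 8 genes, with 39 CpG in chrX:94123358-94123657.

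Zfx: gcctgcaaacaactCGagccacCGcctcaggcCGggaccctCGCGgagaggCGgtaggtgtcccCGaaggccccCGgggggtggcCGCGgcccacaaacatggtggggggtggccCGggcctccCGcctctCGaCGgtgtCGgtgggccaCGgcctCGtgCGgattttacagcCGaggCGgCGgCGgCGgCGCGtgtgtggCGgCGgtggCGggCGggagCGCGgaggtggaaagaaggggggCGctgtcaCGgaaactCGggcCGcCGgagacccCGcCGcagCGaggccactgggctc

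The other called genes had windows of 10 CpG (Igbp1, Nkap) and 18 CpG (Yipf6). Counting each gene's densest window, the median of the 8 genes was 18 CpG, against 19 for the 191 tested genes with a RefSeq match and 8 for the 27025 genes of the RefSeq table.

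Taf1 and Ogt are both general regulators of transcription or chromatin proteins, and they moved to about the same level. Taf1, the largest subunit of TFIID, had ratios of 0.0178, 0.0137, 0.00324 and 0.0012 in WT and of 0.234, 0.177, 0.153 and 0.233 in A3. Ogt, the enzyme that attaches O-GlcNAc to nuclear proteins, had ratios of 0.0194, 0.00828, 0.00222 and 0.00192 in WT and of 0.239, 0.177, 0.163 and 0.177 in A3. For both genes every A3 library was above every WT library. The differences were 0.190 ± 0.0243 (SE, adjusted p = 0.0342, limma) for Taf1 and 0.181 ± 0.0212 (adjusted p = 0.0342, limma) for Ogt. With 2080 to 2919 allelic fragments a library, Ogt was the most deeply covered of the 8 genes.

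Nkap, a nuclear protein that represses Notch-dependent transcription, lies far from the others at chrX:37126762-37150746. Its ratio was 0.031, 0.0146, 0 and 0 in WT and 0.252, 0.193, 0.195 and 0.309 in A3, with a difference of 0.226 ± 0.0296 (adjusted p = 0.0342, limma). At days 35 and 52 no Xi fragment of Nkap was seen in WT, whereas the lowest A3 ratio was 0.193.

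Zfx encodes a zinc finger transcription factor and differed from the other 7 in that it was not silent in WT. Its ratios were 0.229, 0.153, 0.147 and 0.192 in WT and 0.394, 0.284, 0.343 and 0.396 in A3, from 1255 to 1574 allelic fragments. The difference was 0.174 ± 0.0234 (adjusted p = 0.0342, limma). Zfx was at 19.5 CPM from Xi in A3 and 8.10 CPM in WT.

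Igbp1, a regulatory subunit of type 2A protein phosphatases, showed a large change from a near-silent state. Its ratio was 0.0166, 0.00641, 0.00615 and 0.00386 in WT and 0.327, 0.232, 0.196 and 0.401 in A3, with a difference of 0.281 ± 0.0413 (adjusted p = 0.0408, limma). Yipf6, a membrane protein of the Golgi, had ratios of 0.00292, 0.00411, 0 and 0 in WT and of 0.267, 0.198, 0.237 and 0.338 in A3, with a difference of 0.258 ± 0.0304 (adjusted p = 0.0342, limma). Both lie between 98 and 101 Mb, a few megabases from Xist.

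Pin4, a parvulin-type prolyl isomerase, had the largest difference of the 8 and the thinnest coverage, 23 to 50 allelic fragments a library. Its ratio in WT was 0.13, 0, 0.0323 and 0.0208, and in A3 it was 0.525, 0.32, 0.35 and 0.41. The Wilson intervals of the A3 libraries ran from 0.208 to 0.671 over the 4 days and those of WT from 0 to 0.321. At day 15 the WT interval ended at 0.321 and the A3 interval started at 0.375. The difference was 0.355 ± 0.0254 (adjusted p = 0.0114, limma). That SE does not use the fragment counts and is small beside the Wilson intervals. The p-value may therefore be too small for so thinly covered a gene.

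Idh3g, the gamma subunit of the mitochondrial NAD-dependent isocitrate dehydrogenase, and Ssr4, a subunit of the translocon-associated protein complex, share the promoter printed above. Idh3g had ratios of 0.0126, 0, 0.00224 and 0 in WT and of 0.159, 0.12, 0.132 and 0.188 in A3, a difference of 0.146 ± 0.0218 (adjusted p = 0.0408, limma). Ssr4 had ratios of 0.00893, 0, 0 and 0 in WT and of 0.157, 0.0833, 0.157 and 0.318 in A3, a difference of 0.177 ± 0.0437 (adjusted p = 0.124, limma). All A3 values of both genes lay above all WT values, although Ssr4 did not pass the limma threshold.

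The remaining genes among the 20 with the largest mean difference were Rbmx2, Rpl10, Utp14a, Otud5, Pim2, Zbtb33, Slc35a2, Uba1, Ftsj1, Mmgt1 and Ercc6l. Zbtb33, which encodes the methyl-CpG-binding repressor Kaiso, had no Xi fragment in any WT library and ratios of 0.0972, 0.0294, 0.0667 and 0.375 in A3, from 23 to 72 allelic fragments. Uba1, the E1 enzyme that starts ubiquitin conjugation, had ratios of 0.0376, 0.0211, 0.0112 and 0.0012 in WT and 0.162, 0.0973, 0.112 and 0.258 in A3. Mmgt1, a subunit of the ER membrane complex, was at 0.0115 or less in WT and at 0.0995 to 0.203 in A3, a difference of 0.132 ± 0.0268 (adjusted p = 0.099, limma) that did not pass the threshold.

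Genes of translation and RNA processing were among those with RNA from Xi in WT as well. Rpl10, a protein of the large ribosomal subunit, had WT ratios between 0.194 and 0.232 and A3 ratios of 0.478, 0.342, 0.259 and 0.43. Utp14a, a small-subunit processome factor, had ratios of 0.175, 0.0792, 0.0546 and 0.0394 in WT and 0.26, 0.22, 0.198 and 0.289 in A3. Rbmx2, a spliceosome-associated protein, had ratios of 0.101 to 0.157 in WT and of 0.23 to 0.414 in A3. In each of these 3 genes the groups did not overlap, and none passed the limma threshold (adjusted p = 0.0995 to 0.129). Reads of Rpl10 may be shared with processed copies of ribosomal protein genes, so its allelic ratio is the less certain.

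Otud5, Pim2, Slc35a2 and Ftsj1 lie in the stretch below 11 Mb whose ratios rose in WT as well. Otud5, a deubiquitinase, had ratios of 0.0186, 0.0589, 0.173 and 0.0832 in WT and 0.175, 0.132, 0.358 and 0.284 in A3. Slc35a2, the Golgi transporter of UDP-galactose, had 0, 0.058, 0.152 and 0.113 in WT and 0.135, 0.103, 0.391 and 0.259 in A3. For these genes A3 exceeded WT on each day while the 4 A3 values overlapped the 4 WT values. Otud5, Pim2 and Slc35a2 follow each other on the plus strand with gaps of 1.678 and 0.81 kb.

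The 59 other genes higher on all 4 days had mean differences from 0.0031 to 0.128, with a median of 0.0628, and Suv39h1, a histone H3K9 methyltransferase, was the first outside the 20 largest and lies below 11 Mb. Firre, which encodes a long non-coding RNA, was 1 of 7 genes above 0.1 in all 4 A3 libraries and in no WT library, the others being Nkap, Idh3g, Yipf6, Igbp1, Taf1 and Ogt. Its change was the smallest of the 7, as it stayed between 0.0878 and 0.0974 in WT and between 0.107 and 0.117 in A3.

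Few genes went the other way. The most negative mean differences were those of Dynlt3, Wdr44, Tenm1, Mir669m-2 and Praf2, of which Dynlt3 and Praf2 lie below 11 Mb. Dynlt3, a dynein light chain, had more RNA from Xi than from Xa in both genotypes, with ratios of 0.694, 0.741, 0.736 and 0.564 in WT and 0.576, 0.552, 0.717 and 0.514 in A3. Its difference was -0.0937 ± 0.0372 (adjusted p = 0.197, limma). Tenm1, a teneurin of neurons, had ratios of 0.0185, 0.0381, 0.0769 and 0.0571 in WT and 0, 0.0131, 0.0159 and 0 in A3, from 8 to 153 allelic fragments. The Wilson intervals of the genotypes overlapped for Tenm1 on each day. Wdr44 had 16 to 32 allelic fragments a library and Praf2 had 8 to 39.

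The genes with the highest WT ratios were Dynlt3, Pnma5, Slc25a5, Nono and Wdr44. Slc25a5, the mitochondrial ADP/ATP carrier, stood at 0.365 to 0.411 in WT and 0.394 to 0.478 in A3, and these ranges overlapped. Nono, an RNA-binding protein of paraspeckles, stood at 0.22 to 0.245 in WT and at 0.245 to 0.39 in A3. The highest WT and the lowest A3 value were both 0.245 after rounding, and its difference was 0.0814 ± 0.0286 (adjusted p = 0.174, limma).

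Of the escape genes listed from earlier knowledge, 6 were among the members, and 4 of the 6 were higher in A3 on all 4 days against 33.2% of all tested genes. However, 4 of the 6, Kdm6a, Ddx3x and Shroom4 among them, lie below 20 Mb, and 1 of the other 2 was higher on all 4 days. Kdm6a, an H3K27 demethylase, had ratios of 0.062, 0.102, 0.0284 and 0.00659 in WT and of 0.152, 0.184, 0.179 and 0.153 in A3. Its difference was 0.117 ± 0.0234 (adjusted p = 0.099, limma), with no overlap between groups. Ddx3x, an RNA helicase, had 0.119, 0.0862, 0.0857 and 0.0201 in WT and 0.147, 0.184, 0.241 and 0.111 in A3. Eif2s3x, the gamma subunit of translation initiation factor eIF2, had 0.216, 0.163, 0.235 and 0.246 in WT and 0.19, 0.227, 0.22 and 0.345 in A3, so it was higher in A3 at days 21 and 52. Shroom4 had a mean difference of -0.00626 ± 0.0354, with 0.0115 and 0.0116 in A3 at days 21 and 52 and 0.219 at day 35. None of the 6 passed the limma threshold.

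The dependence classes that the study assigned to X-linked genes from mouse embryonic fibroblasts (MEFs) ordered the differences in these NPCs. These classes rest on other cells, and no test was made on them. The 36 genes classed as SmcHD1 dependent had a median difference of 0.0748, and 22 of them were higher on all 4 days. The 83 partially dependent genes had a median difference of 0.0293 with 43 higher on all 4 days. The 67 genes classed as not dependent had 0.0023 with 5. The 9 genes classed as escapees in MEFs had the largest median difference of all classes, 0.0931 with 6 higher on all 4 days. The 5 escapees from 20 Mb on had 0.0814 with 3. Over all 238 genes the median difference was 0.0137 with 79 higher on all 4 days. From 20 Mb on, the 26 dependent genes had a median difference of 0.0781 with 18 higher on all 4 days, the 65 partially dependent genes 0.0367 with 41, and the 60 genes not dependent 0.00199 with 5, against 0.0113 with 68 for all 190 genes. The called genes were split evenly, 4 dependent (Nkap, Idh3g, Taf1, Ogt) and 4 partially dependent (Pin4, Igbp1, Yipf6, Zfx).

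Day by day, the median ratio of the dependent genes in A3 was 0.0801, 0.0374, 0.0977 and 0.12, against 0.0071, 0.00349, 0.00223 and 0 in WT. That of the partially dependent genes was 0.0235, 0.0305, 0.042 and 0.0549 in A3 and 0.00386 to 0.00765 in WT. The genes not dependent in MEFs had medians of 0.00253 to 0.0108 in A3 and of 0.00207 to 0.00488 in WT, and at day 52 the medians were 0.00253 and 0.00207. The 9 genes that escape in MEFs had A3 medians of 0.132 to 0.216 and WT medians of 0.0186 to 0.0857. The 5 of them from 20 Mb on had A3 medians of 0.0748 to 0.246 and WT medians of 0.00112 to 0.00819. The 43 tested genes without a class had a median difference of 0.0062.

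**Figure D3:**
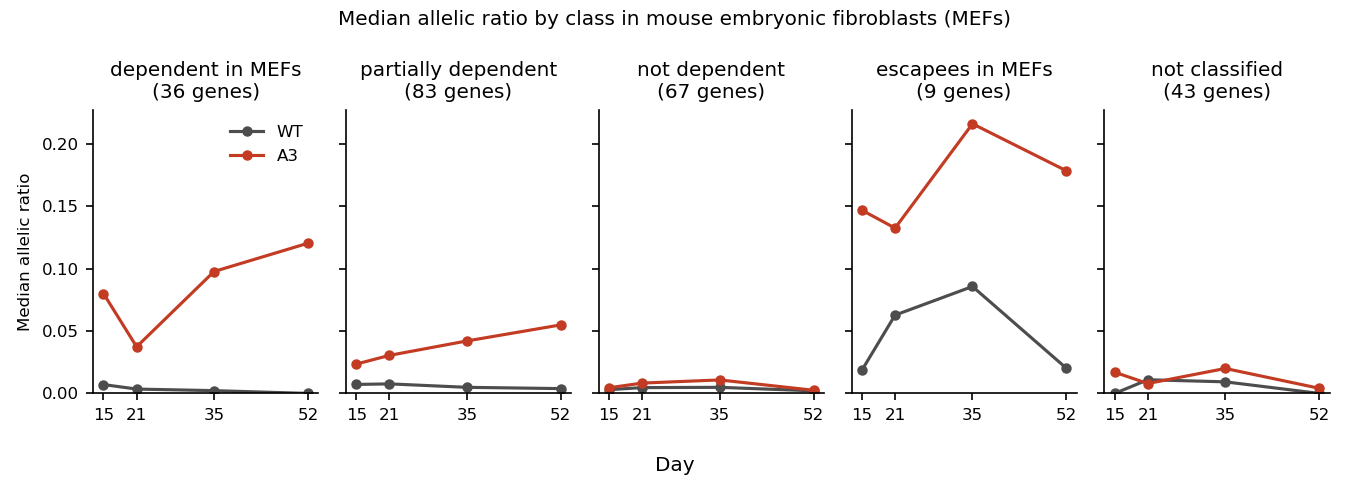
Median allelic ratio by day for X-linked genes grouped by their class in mouse embryonic fibroblasts, WT in grey and A3 in red. The dependent genes separate on every day, with A3 medians of 0.0374 to 0.12 over WT medians of 0.0071 or less, and the lines of the not dependent genes lie close together.

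Grouped by function, the 24 X-linked genes for chromatin and transcription included 4 called genes (Nkap, Taf1, Ogt and Zfx) and 13 that were higher on all 4 days, with a median difference of 0.0289. Genes for RNA processing and translation numbered 18, with 0 called, 11 higher on all 4 days and a median difference of 0.0484. The 16 genes of membrane traffic included Yipf6 as the called gene and 7 higher on all 4 days (median 0.0466). The 16 genes of mitochondria and metabolism included Idh3g and had 5 higher on all 4 days (median 0.0282). Of the 5 genes of the ubiquitin system, 3 were higher on all 4 days and 0 were called. Against 33.2% of all tested genes, the share higher on all 4 days was 54.2% for chromatin and transcription, 61.1% for RNA processing and translation, 43.8% for membrane traffic and 31.2% for mitochondria and metabolism, so the last group was near the share of all genes. From 20 Mb on, where 68 of 190 genes were higher on all 4 days, the counts were 11 of 17, 8 of 14, 6 of 11 and 5 of 13 in the same order, and 1 of 3 for the ubiquitin system.

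Genes with more Xi RNA in WT at day 3 had larger late differences. Ranked by their WT ratio at day 3 in separate libraries, the 60 lowest genes had a median late difference of 0.00214 and the 60 highest 0.0556. The 60 highest included 7 of the 8 called genes. Across the 238 genes the late difference correlated with the WT ratio at day 3 with Spearman's rho of 0.375 and with gene span with -0.268, and it hardly correlated with start position (0.0406) or with the level of Xa RNA (0.0314). These are descriptions over genes, which share libraries and neighbourhoods.

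**Figure D4:**
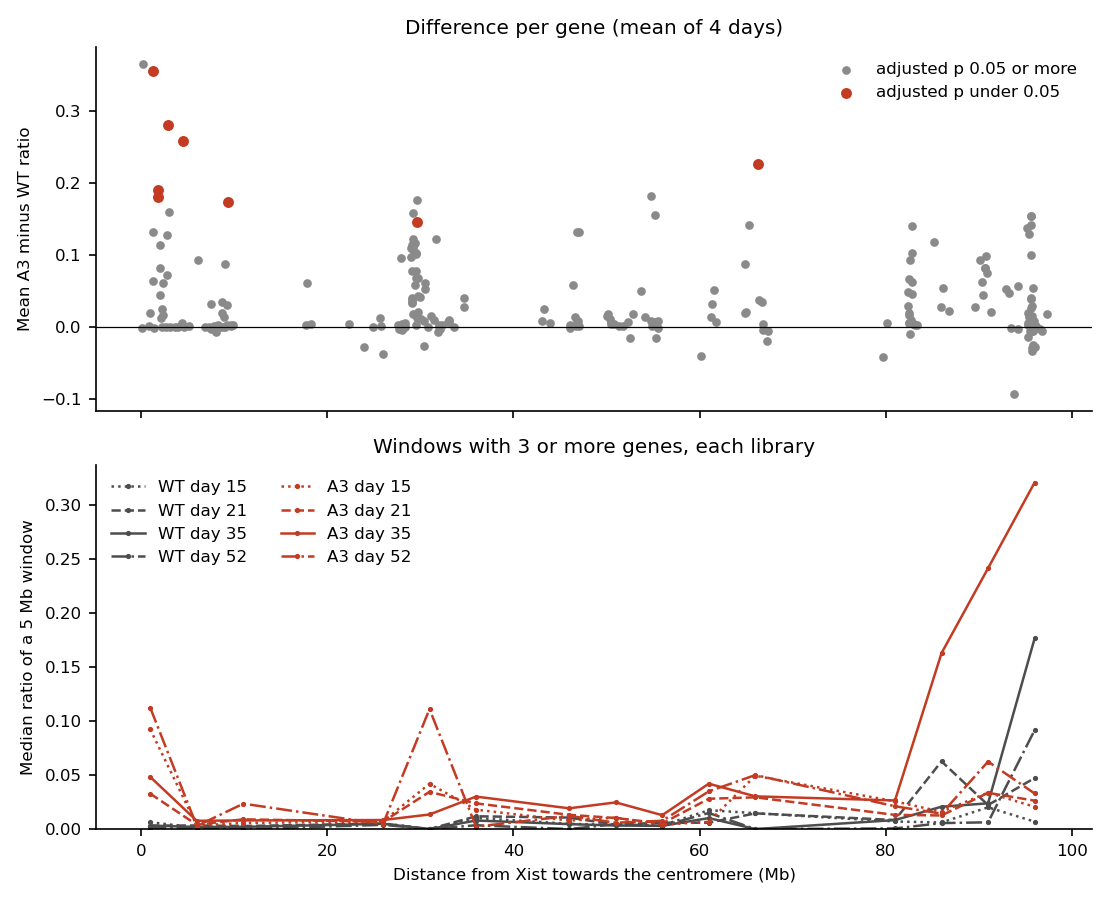
Top, mean A3 minus WT allelic ratio of each X-linked gene against its distance from Xist in Mb, with the 8 called genes in red. Bottom, the median ratio of genes in 5 Mb windows in each library, in which the windows farthest from Xist rise in WT at day 35 (0.176) and A3 at day 35 (0.321).

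Along the chromosome, 6 of the 8 called genes lay at 94 Mb or above, where 48 genes were tested. There 20 genes were higher on all 4 days. The median difference was 0.018 there, 0.0121 for the 69 genes from 65 to 94 Mb, 0.0076 for the 53 genes from 35 to 65 Mb and 0.0213 for the 68 genes below 35 Mb. The last value rests on day 35, since the medians below 35 Mb were 0.00744, 0.000474, 0.0988 and -0.00249 at days 15, 21, 35 and 52. The 20 of these genes from 20 Mb on had a median difference of 0.0127. Large and near-zero differences lay side by side in each interval.

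Total RNA of the called genes did not pass a test. All 8 had a positive log2 fold change, from 0.05 (Idh3g) to 0.45 (Igbp1), and none passed an adjusted p of 0.05 by edgeR. Their Xa level differed by a median log2 of -0.05. Over the 238 genes, 132 had a positive log2 fold change of total RNA. Slc7a3, a transporter of cationic amino acids, had the smallest p of the members, with a log2 fold change of -1.57 ± 0.188 (adjusted p = 0.462, edgeR). Pola1, the catalytic subunit of DNA polymerase alpha, had one of -0.74 ± 0.162, Firre of -0.49 ± 0.124 and Wdr13 of 0.52 ± 0.111, and none of these passed. Together the 8 genes gave 6.93 to 13.2 CPM from Xi in WT and 52.4 to 78.2 CPM in A3, which was 4.09% to 11.4% of the Xi fragments of all 246 genes in WT and 9.09% to 22.2% in A3.

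Libraries outside the comparison showed the same genes at earlier days. In uninduced A3 mESCs the 8 called genes had mean ratios of 0.342 (Taf1) to 0.667 (Zfx). At day 3 Ogt was at 0.214 in WT and 0.176 in A3, and Taf1 at 0.239 and 0.211, so A3 was not higher at that time. At day 7 all 8 genes had a higher mean ratio in A3 than in WT, by 0.0388 to 0.255. Of the 79 genes higher on all 4 late days, 75 were higher in A3 at day 7, against 177 of all 238 genes tested. Ogt, for instance, was at 0.0492 in WT and 0.192 in A3 at day 7, which is within its late A3 range of 0.163 to 0.239.

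The other line of the study, iXist-ChrX-Cast, carries the inducible Xist on the Cast X chromosome and had SmcHD1 KO clones D5 and G6, with 9 libraries at days 15, 21 and 35. Of the 226 members measured in both lines, 194 had a higher mean ratio in KO than in WT there, and all 8 called genes did, by a median of 0.135. Taf1 had a larger difference in that line, 0.218 against 0.190. The effect of the KO differed between the lines for 1 gene, Pin4, 0.442% of those tested (interaction by limma, adjusted p = 0.000548). Its difference was larger in the Dom line by 0.232 ± 0.0247, an SE that does not use the fragment counts either.

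No gene passed the test of total RNA between the genotypes. By edgeR with day as a block, 0 of 15229 genes passed an adjusted p of 0.05 (0%), while 1622 had an unadjusted p under 0.05 (10.7%), 770 of them higher in A3. DESeq2 called 186 genes, and an edgeR fit that shared its spread with all libraries of the Dom line called 1379, of which 1008 were lower in A3. Of 14689 autosomal genes, 1586 were higher in A3 on all 4 days (10.8%) and 1896 lower (12.9%). With library totals in place of TMM scaling the same counts were 710 and 2999, and the median log2 fold change of all genes moved to -0.13, so the balance of higher and lower genes depends on the scaling. Xist takes a large part of the A3 library of day 52, whose TMM factor was 0.817 against 0.98 to 1.09 in the others.

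From these genes, the 12 higher and the 12 lower with the largest smallest-day difference were taken, so their late differences are given as a description, for 11 of the higher genes and all 12 lower ones. In bulk libraries fewer cells of a type and less RNA per cell cannot be told apart, and these cultures differed in marker content. Summed markers of naive and core pluripotency were at 25.2 to 255 RPM (fragments scaled by the library total) in WT and 10.2 to 78.4 in A3, with 7 of 16 genes lower in A3 on all 4 days. Proliferation genes were at 1275 to 1729 RPM in WT and 319 to 1547 in A3, with 10 of 14 lower on all 4 days. Markers of fibroblasts and feeders ranged from 707 to 9832 in WT and from 1207 to 12487 in A3, with 0 of 12 higher or lower on all days. Neural precursor markers summed to 849 to 1000.0 in WT and 524 to 974 in A3. Vim, Cd44 and Slc1a3 gave a large part of these sums. Pax6 and Fabp7 reached 1.60 RPM at most at days 21 and 35 and were higher at days 15 and 52. Sox1 and Sox2 had no counted fragment in any of the 8 libraries. Because a count of 0 can also arise where annotated genes overlap on a strand, their RNA need not be absent. This was not tested. Neuronal markers summed to 279 to 1131 RPM in WT and 225 to 1166 in A3. The A3 maximum was at day 52, where Map2 alone gave 1150 RPM. Of the 15 neuronal markers tested, 0 were higher and 4 lower in A3 on all 4 days. Their median log2 fold change was -0.61. The A3 library of day 52 also held the lowest proliferation sum, 319 RPM. The part of these differences in the gene lists was not tested.

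Among the higher genes, Nlgn1, the postsynaptic adhesion protein neuroligin 1, was at 52.2, 31.3, 4.99 and 4.98 CPM in WT and 178, 103, 38 and 208 CPM in A3. Brinp1, a neural inhibitor of cell cycle progression, was at 7.84, 7.69, 3.12 and 1.03 CPM in WT and 18.5, 46.2, 19.3 and 11.7 CPM in A3. Its groups did not overlap.

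Neto1, an auxiliary protein of glutamate receptors, and Sorcs3, a sorting receptor of neurons, fell with day in WT. Neto1 was at 5.61, 2.28, 0.493 and 0.427 CPM in WT and 12.9, 5.89, 2.74 and 5.03 CPM in A3. Sorcs3 was at 36.3, 1.38, 0.788 and 0.392 CPM in WT and 86.2, 10.2, 2.82 and 11.9 CPM in A3. For both genes A3 was higher on each day while the 4 values of each genotype overlapped.

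The other higher genes had varied roles. St3gal1, a sialyltransferase, was at 18.4, 20, 14.6 and 57.2 CPM in WT and 59.8, 45.2, 38.8 and 247 CPM in A3, with the day 52 library highest in both genotypes. Tbx15, a T-box factor of mesenchyme, was at 52.5, 7.44, 18.6 and 84 CPM in WT and 168, 21.8, 37.8 and 544 CPM in A3. Prkcb, protein kinase C beta, was at 23.3, 33.8, 14.9 and 28.8 CPM in WT and 45.4, 68.7, 52.7 and 207 CPM in A3, without overlap. Ccdc129 was at 0.723 to 2.69 CPM in WT and 2.68 to 6.91 CPM in A3.

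Dpep1, Ces2g and Pcdha1 were near the floor. Dpep1 had 0 to 12 fragments in a WT library and 3 to 26 in A3, and Ces2g had 2 to 19 and 9 to 43. Both lie on chromosome 8 in windows with an unequal allele share. Pcdha1, a clustered protocadherin of the kind that SmcHD1 is known to regulate, had 25, 0, 9 and 18 fragments in WT and 85, 10, 19 and 164 in A3. Its annotated span contains the other genes of the alpha cluster on the same strand. The counting settings that the study gives name no option to count a fragment for several genes. The value may thus rest on the parts of the span that no other gene covers, which was not resolved further. Epha6 was the first gene outside the 12.

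All lower genes but Gm12298 had their largest difference at day 52. Kcnj3, a subunit of a G-protein-gated potassium channel, was at 42, 215, 267 and 88.8 CPM in WT and 13.7, 31.6, 96.2 and 0.206 CPM in A3. Trpc7, a cation channel, was at 2.73, 9.31, 23.6 and 3.77 CPM in WT and 0.607, 1.39, 6.16 and 0.0825 CPM in A3. 1700019D03Rik was at 7.96, 35.6, 31 and 7.51 CPM in WT and 2.9, 8.71, 12.2 and 0.0825 CPM in A3. Over the 8 libraries the Cast allele gave a share of at least 0.952 of the allelic fragments of Trpc7, at most 0.148 of those of Kcnj3 and at most 0.067 of those of 1700019D03Rik, in WT as in A3.

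Ugt8a, the enzyme that makes galactosylceramide, was at 4.41, 13, 7.92 and 2.39 CPM in WT and 2.19, 3.87, 3.67 and 0 CPM in A3. Myo3a, an unconventional myosin, was at 6.57, 16.8, 24.4 and 3.99 CPM in WT and 2.93, 4.84, 11.8 and 0.742 CPM in A3. Slc27a2, a fatty acid transporter and acyl-CoA synthetase, was at 4.85, 28.5, 14 and 4.27 CPM in WT and 1.45, 10.2, 6.64 and 0.0412 CPM in A3, and Calcr, the calcitonin receptor, was at 1.84 to 10.8 and 0.0825 to 4.25 CPM. These genes were higher at days 21 and 35 than at days 15 and 52 in both genotypes, as was the summed level of pluripotency markers. Gm12298, Cabp7, Crhr2, Dnajc22 and Slco4a1 had no more than 66 fragments in any of the 8 libraries. Cabp7 and Crhr2 were the lower genes whose groups did not overlap. Fgf4 was the first gene outside the 12.

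**Figure D5:**
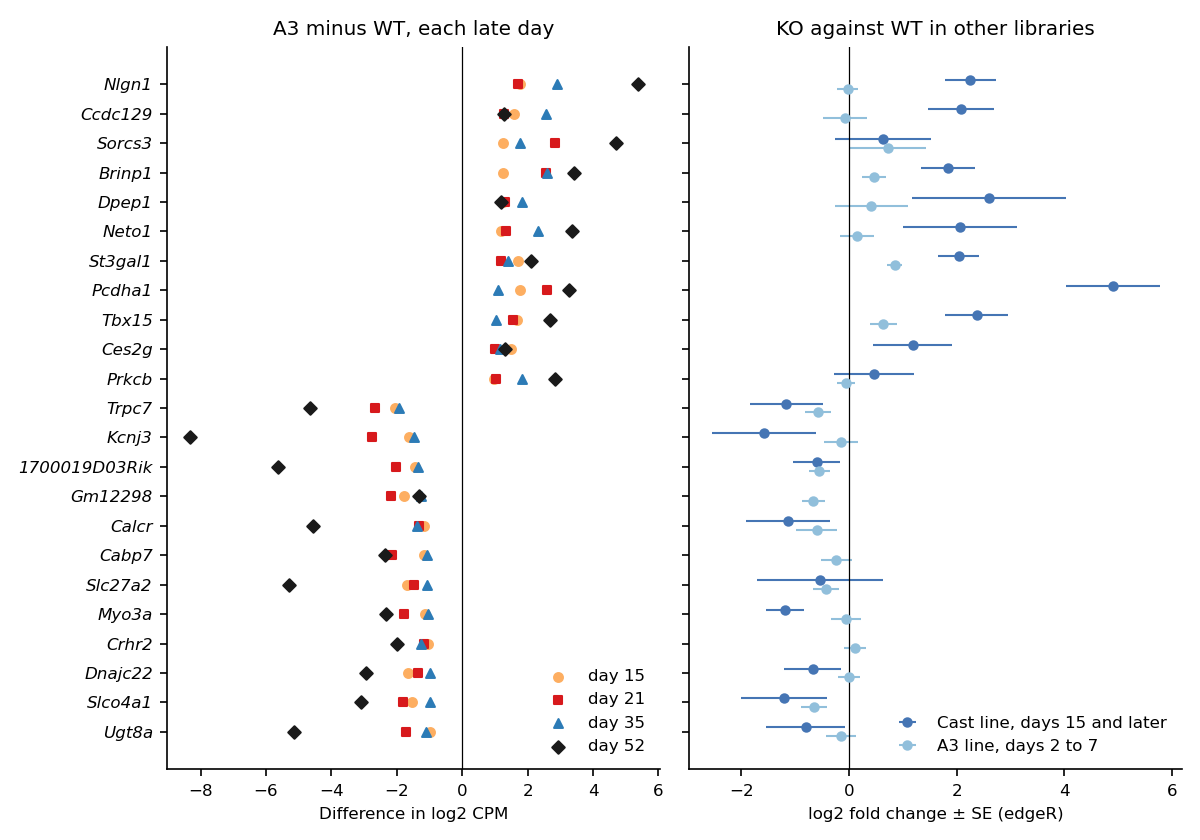
Left, difference in log2 CPM between A3 and WT on each late day for 11 higher and 12 lower autosomal genes. Right, log2 fold change with its SE by edgeR of KO against WT in the iXist-ChrX-Cast line at days 15 and later and of A3 against WT at days 2 to 7, in which all 11 higher genes are also positive in the Cast line.

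In libraries that did not choose these genes, few of these genes passed a test. In the Cast line, 0 of 14963 genes passed an adjusted p of 0.05 by edgeR (0%), with 1898 under an unadjusted p of 0.05. Of the 11 higher genes, 11 were positive there, with a median log2 fold change of 2.06 against -0.01 for all genes, and of the 9 lower genes that could be tested, 9 were negative with a median of -1.13. Of all genes tested in that line, 49% were positive and 51% negative. Pcdha1 had a log2 fold change of 4.90 ± 0.866 in that line (adjusted p = 0.271, edgeR) and Nlgn1 one of 2.25 ± 0.478 (adjusted p = 0.279, edgeR).

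At days 2 to 7, with a pair of libraries a genotype and day, 124 of 15443 genes passed between A3 and WT (0.803%). Of the 9 higher genes tested, 6 were positive, with a median log2 fold change of 0.41, where 51.5% of all genes were positive. Among them St3gal1 rose by 0.84 ± 0.130 (adjusted p = 0.0173, edgeR). Of the 12 lower genes 11 were negative, with a median of -0.34 and 48.5% of all genes negative, and 0 passed. Nlgn1 was at -0.03 ± 0.197, Ccdc129 at -0.07 ± 0.408 and Prkcb at -0.06 ± 0.173, so these 3 genes were not higher at the early days.

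Gene lists of interest for SmcHD1 held few members with a small p in the late libraries. Of 52 tested imprinted genes, 9 were higher and 4 lower in A3 on all 4 days, and 0 passed an adjusted p of 0.05 by edgeR. Peg10 had a log2 fold change of 0.86 ± 0.128, Ndn of 0.66 ± 0.162 and Airn, the antisense RNA of the Igf2r domain, of 0.56 ± 0.131. Airn lies in a window whose allele share differed between libraries. Of 32 tested Hox genes, 5 were higher and 2 lower on all 4 days, and Hoxc6 had 0.93 ± 0.176. Tet1, a 5-methylcytosine dioxygenase, had -0.68 ± 0.153, and Cbx7, a Polycomb subunit, -1.04 ± 0.175. In the Cast line the log2 fold changes of Peg10, Ndn and Airn were 0.64, 0.92 and 0.24. Hoxc6 was at -0.11 there, Tet1 at 0.0002 and Cbx7 at -0.33. Among the genes of SmcHD1, its partners and SMC complexes, 3 of 22 were higher and 9 lower on all 4 days, against 1647 and 1961 of all 15229 genes. Of clustered protocadherins 1 of 58 had enough fragments to be tested, Pcdha1, and the other 57 had no counted fragment in any of the 8 libraries. Where annotated genes overlap on a strand, a count of 0 need not mean absent RNA, and this was not tested.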

How the data were processed

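ChrRNA-seq libraries of both genotypes were read as the files the authors deposited. Per the labels and the study's methods, ribosomal reads were removed with Bowtie2 (2.3.2), the rest were aligned with STAR (2.4.2a) to mm10 with strain variants masked, fragments were assigned to alleles, and featureCounts counted them per gene with strand. The deposited values are raw fragment counts (all fragments, Cast allele, Dom allele). The deposited allelic ratios are fractions, and the Cast table equalled the ratios of the counts (3973 values, largest difference 4.996e-16). The Dom table supplied the gene list, because its 26 value columns carry Cast names and were not used, and the ratios were computed from the counts.

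Ratios were tested with limma (3.58.1, eBayes with trend) and total counts with edgeR (4.0.16, filterByExpr, TMM, quasi-likelihood), day as a block, two-sided, with p-values adjusted by the Benjamini-Hochberg method over all genes tested. CPM use TMM-scaled library sizes, and log2 differences a prior count of 2. The ratio test takes every library as equally precise whatever its depth. Both fits were tested on simulated data that held no difference between days and no shared shift of neighbouring genes. Those runs do not show how the fits behave under such shifts. R 4.3.3 and DESeq2 1.42.0 were used. Replicates are libraries of different days, and p-values measure the spread between them. Days may be samples of the same culture, in which case the p-values do not measure the spread between independent cultures.

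X-linked genes were named when they passed, were among the 20 largest differences of those higher on 4 days, the 5 most negative, the 5 highest in WT, or listed escape genes. The 12 autosomal genes each way have the same sign on 4 days and the largest smallest-day difference, and 1 of them is not reported here. List members other than these were named at an unadjusted p under 0.01. The members, lists and rules were chosen with earlier results of these data known. The 8 members with no allelic fragment in a library (among them Nudt11, Gm6938, Kis2, Gm364, Dusp9, Nr0b1 and Nap1l2) were not tested. MEF classes are those of the study's supplement. Segments of 20 Mb with a Cast share outside 0.4 to 0.6, or varying by over 0.05, were marked.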

Additional observations from a re-analysis of the deposited data

Results flagged for a closer look

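The effect of the SmcHD1 KO on the allelic ratio of Pin4 differed between the lines in a test of the difference itself, and it was larger in the Dom line by 0.232 (interaction by limma, adjusted p = 0.000548). The A3 minus WT difference was 0.355, positive on 4 of 4 days, and the KO minus WT difference in the Cast line was 0.124. Pin4 was the gene called with days 15, 21 and 35 only and with at least 10 allelic fragments a library as well. Its late Dom ratios rest on 23 to 50 allelic fragments a library. The test takes no account of this depth, so its p-value may be too small.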

How the results depend on the processing

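No paired analysis was possible because the late WT libraries carry no replicate number, and day is the block of the late fits. In the early libraries, which share replicate numbers, the fit with the replicate number as a block called 130 genes and a crossed block 540, against 124 without a block. The correlation of the replicate differences ran from -0.327 at day 2 to -0.666 at day 7. Both block settings were chosen after seeing the data.

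The 8 called X-linked genes became 65 with edgeR on the allelic counts, 69 on log2 odds (68 higher in A3), 17 with at least 30 allelic fragments a library and 17 with no day term. With 1 day left out the count was 0 to 0. It was 8 without genes below 20 Mb, 8 with at least 10 fragments and 7 without a trend. The cause of these shifts was not tested, save that leaving out a day removes samples. The mean difference of the medians kept its direction in all settings, at 0.015 to 0.0195 with 1 day left out, 0.0398 for means over genes and 0.0389 for the pooled ratio. Total RNA called 0 genes with edgeR in 10 of the 12 settings, 186 with DESeq2 and 1379 in one fit over all Dom libraries. The number of autosomal genes with 1 direction on all days, 3482 with 45.5% higher in A3, was 3709 with 19.1% higher under library totals, and 4467 to 6388 with 1 day left out. Genes with few allelic fragments, such as Pin4, are limited by depth.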
